A study of Mus musculus with 9 samples.

Results

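The 41 genes described here are the classical heat shock and unfolded protein response genes of the mouse: 14 cytosolic chaperones, co-chaperones and their transcription factor, 3 mitochondrial chaperones, 15 folding factors of the endoplasmic reticulum (ER), 4 sensors and regulators of the unfolded protein response and 5 genes of the integrated stress response. They were taken by name, and all 41 were found among the 52636 genes of the count table and entered the tests of 39210 genes. The study sequenced RNA of nucleus accumbens tissue from male C57BL/6 mice, in cells labelled as cholinergic interneurons, which are sparse striatal neurons that release acetylcholine onto their neighbours. Tissue was dissociated with papain and cells were sorted by fluorescent anti-ChAT staining, ChAT being the acetylcholine-synthesising enzyme. The 9 libraries formed 3 groups of 3, called SUS, RES and naive here. SUS and RES mice had worked for intravenous cocaine, 1.2 mg/kg per infusion, in daily 23 h progressive ratio sessions over 10 days and were killed on day 3 afterwards, and naive mice had taken none. For SUS and RES a fixed ratio stage with a maximum of 40 infusions is also recorded. All groups shared the strain, the sex and the sorting procedure. The genotype field reads WT for the naive libraries and repeats the group name for SUS and RES, so no allele is stated for those.

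The titles and the behavioural phenotype field name SUS and RES in opposite ways, as the SUS libraries carry the word resilient and the RES libraries the word susceptible. The names of the titles are kept and nothing is read as susceptibility or resilience. Punches of 2 to 3 mice were pooled, and the labels leave it unclear whether libraries of a group had separate pools, so p-values measure the spread between these libraries, which may be technical. Total counts were 4471675 to 11155730 per library and mitochondrial genes took 9.09% to 28.7% of them. The label was checked against marker genes, using as background the count density per exonic kb of 1134 olfactory receptor genes, taken as silent. Of 9 cholinergic markers 0 averaged above 3 times background, against 11 of 12 medium spiny neuron genes, 9 of 10 astrocyte genes and 18 of 18 microglial genes, so the defining markers of the labelled cell type were near background. The share of nuclear-gene counts lying at background density was 23.8% to 50.4%, highest in RES replicate 3, which also had the largest TMM scaling factor (1.58, against 0.743 to 1.09 in the other libraries).

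Heat shock proteins bind unfolded chains and use ATP to help them fold. In the cytosol, heat and other proteotoxic stress free the factor Hsf1, which binds heat shock elements and turns on the inducible chaperones. In the ER, 3 membrane sensors, Ern1 (IRE1), Eif2ak3 (PERK) and Atf6, sense unfolded protein: Ern1 splices the mRNA of Xbp1, Atf6 is cut to give a transcription factor, and both products turn on ER chaperones, whereas Eif2ak3 slows translation and favours that of Atf4. Atf4 also answers amino acid shortage and other stresses, through genes such as Ddit3, Trib3, Chac1 and Asns. In the brain these genes are studied in neurodegeneration and ischaemia.

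Promoter sequence differed between the classes. RefSeq promoter windows (250 bases before to 50 after a start, GRCm38.p6) were at hand for 32 of the 41 genes, all but Hspa8, Hsp90aa1, Hsp90ab1, Cryab, Hsf1, Hspa9, Hyou1, Manf and Atf6. Both strands were searched. A member was counted once if any of its windows matched, whereas the shares over all windows are per window. The ER stress response element, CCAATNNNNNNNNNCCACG, was in the windows of 7 of 13 ER folding genes and in 0 of the other 19, against 39 of all 32851 windows of the mouse (0.119%). The shorter form II, ATTGGNCCACG, was in those of Dnajb11 and Herpud1, against 0.0365% of all windows. The 7 sequences are shown because the element set them apart from the other classes, and they include Hspa5, which had the widest spread between libraries of the ER folding class. Capitals mark the element, on either strand.
Hspa5 (chr2:34772020-34772049, plus strand): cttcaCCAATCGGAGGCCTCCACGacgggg
Calr (chr8:84847052-84847121, minus strand): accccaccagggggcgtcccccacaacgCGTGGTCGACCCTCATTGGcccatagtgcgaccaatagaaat
Canx (chr11:50325774-50325843, minus strand): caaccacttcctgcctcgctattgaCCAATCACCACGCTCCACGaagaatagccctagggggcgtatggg
Hsp90b1 (chr10:86705520-86705664, minus strand): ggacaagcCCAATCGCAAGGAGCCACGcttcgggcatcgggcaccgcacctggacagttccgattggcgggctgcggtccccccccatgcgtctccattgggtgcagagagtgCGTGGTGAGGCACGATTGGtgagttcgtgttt
Dnajc3 (chr14:118937802-118937871, plus strand): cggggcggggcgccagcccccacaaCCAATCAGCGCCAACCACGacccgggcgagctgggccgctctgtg
Pdia6 (chr12:17266464-17266533, plus strand): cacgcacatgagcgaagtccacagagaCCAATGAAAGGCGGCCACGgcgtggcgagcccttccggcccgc
Creld2 (chr15:88819496-88819565, plus strand): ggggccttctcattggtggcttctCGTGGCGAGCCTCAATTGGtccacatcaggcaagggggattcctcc

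The heat shock element, searched as GAANNTTC or TTCNNGAA, was in the windows of 7 of 9 cytosolic genes and of both mitochondrial genes with a window, Hspd1 and Hspe1, against 0 of 13 ER folding genes and 15.1% of all windows. A run of 3 units, GAANNTTCNNGAA or TTCNNGAANNTTC, which contains the shorter form, was in those of Hsph1, Hspd1 and Hspe1, against 0.603% of all windows. Hspd1 and Hspe1 lie head to head on chromosome 1 and share the same run. Hspa1a and Hspa1b, the inducible Hsp70 genes, have windows that match at 296 of 300 bases, and the stretch shown is identical between them. Capitals mark the heat shock element.
Hspa1a (chr17:34972222-34972291, minus strand): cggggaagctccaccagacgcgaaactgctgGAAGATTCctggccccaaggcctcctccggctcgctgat
Hspa1b (chr17:34959304-34959373, minus strand): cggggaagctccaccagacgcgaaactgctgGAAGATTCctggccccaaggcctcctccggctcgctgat
Hspe1 (chr1:55088053-55088082, plus strand): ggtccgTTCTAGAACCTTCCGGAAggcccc

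The amino acid response element, searched as TGATGNAA on both strands, was in the windows of Asns, Chac1, Trib3 and Herpud1, against 3.97% of all windows. In Asns it overlaps by 4 bases a match to the heat shock element. In Herpud1, capitals mark it and the ER stress response element II further on. The unfolded protein response element TGACGTGG was in 0 of the 32 windows, against 0.676% of all. A match is a description of letters, and the absence of a match says only that these letters are not in this window.
Chac1 (chr2:119351022-119351091, plus strand): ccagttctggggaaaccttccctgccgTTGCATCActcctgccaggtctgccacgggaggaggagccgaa
Asns (chr6:7693216-7693245, minus strand): ggtcccagccacaTGATGAAActtcccgca
Herpud1 (chr8:94386299-94386408, plus strand): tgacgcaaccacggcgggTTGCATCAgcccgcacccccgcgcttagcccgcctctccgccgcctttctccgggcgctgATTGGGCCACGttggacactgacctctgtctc

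Most of these genes were measured well above background. On the density scale, counts per exonic kb over those of the olfactory receptor genes, 34 of 41 averaged above 3 times background over the 9 libraries, against 5757 of 21883 protein-coding genes (26.3%). The highest were Hsp90ab1, the constitutive cytosolic Hsp90, at 61.1 times background, the constitutive Hsp70 Hspa8 at 37.5, the ER lectin chaperone Calr at 30.1, the inducible Hsp90 gene Hsp90aa1 at 25.8 and the ER Hsp70 Hspa5 (BiP) at 22.6. The 7 that stayed at or under 3 times background were Chac1, Hspb1, Hsf1, Trib3, Manf, Dnajb4 and Ern1, at 1.69 to 2.63. A list of 30 genes used only outside the brain stood at a median of 1.51 to 2.10 times background. The levels of Chac1, Hspb1, Hsf1 and Trib3 therefore cannot be told from those of silent genes. The upper quartile of that list was 1.985 to 2.596 times background over the libraries. Manf, at 2.16, and Dnajb4, at 2.40, lay within that range too, and Ern1, at 2.63, just above it. With those 30 genes as background only 19 of the 41 were above 3 times. A member had 9 to 5789 counts in a library, and 37 of the 41 averaged at least 10 CPM, the count scaled to library size by TMM.

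**Figure D1:**
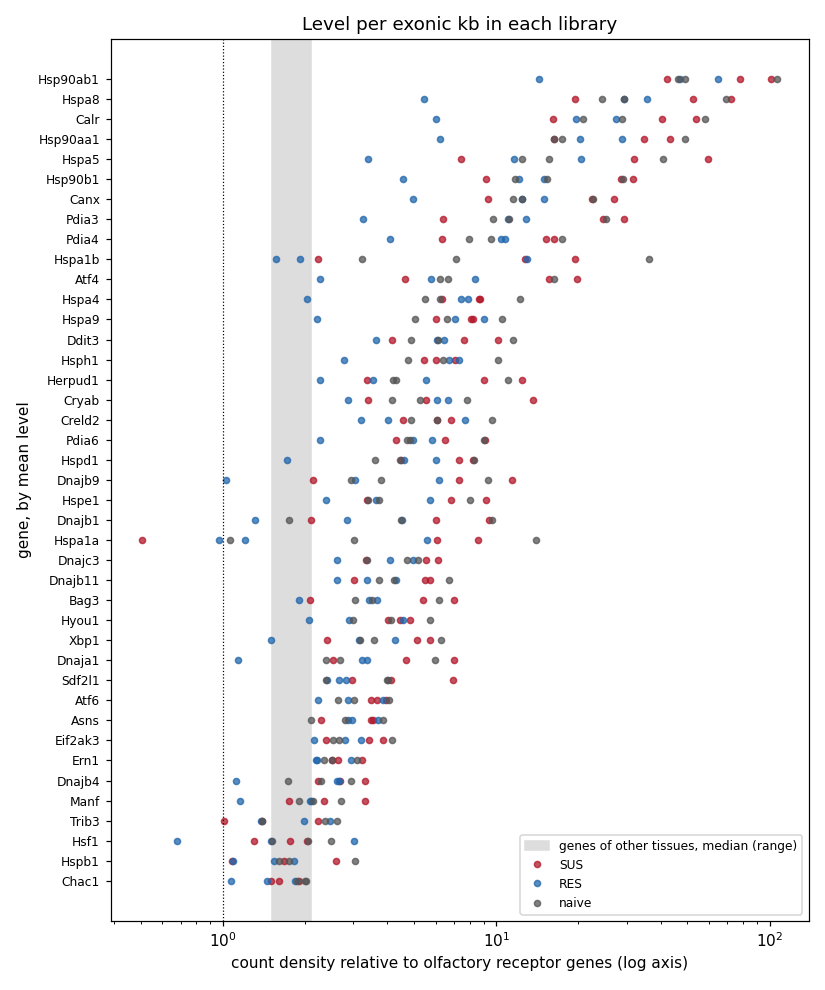
Level of each of the 41 genes in each of the 9 libraries (points, coloured by group), as count density per exonic kb relative to olfactory receptor genes, on a log axis; the grey band is the range over libraries of the median of 30 genes of other tissues. Hsp90ab1, Hspa8 and Calr lead, Hspa1a and Hspa1b are spread widest, and Chac1, Hspb1, Hsf1 and Trib3 lie in or beside the band.

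The genes varied together from library to library, also within groups. For each gene the deviation of log2(CPM + 0.5) from its mean over the 9 libraries was taken, and the mean over the 41 genes was 0.43, -0.48 and 0.83 in SUS replicates 1 to 3, 0.20, -0.35 and -0.98 in RES and -0.04, 0.64 and -0.25 in naive. SUS replicate 3 and RES replicate 3 were the extremes, naive replicate 2 came second, and each group held libraries both above and below the mean. Over all genes of at least 10 CPM the median deviation was -0.30 in RES replicate 3 and -0.08 to 0.13 in the other libraries. Part of the low in RES replicate 3 was thus general to that library. The group means of this deviation were 0.26 ± 0.67 in SUS, -0.38 ± 0.59 in RES and 0.11 ± 0.46 in naive (SD, n = 3 each). The SD within groups, pooled, was 0.58. SUS replicate 3 had the highest value for 29 of the 41 genes, against 25.1% of the 14443 genes of at least 10 CPM, and RES replicate 3 had the lowest for 29, against 40.2%.

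**Figure D2:**
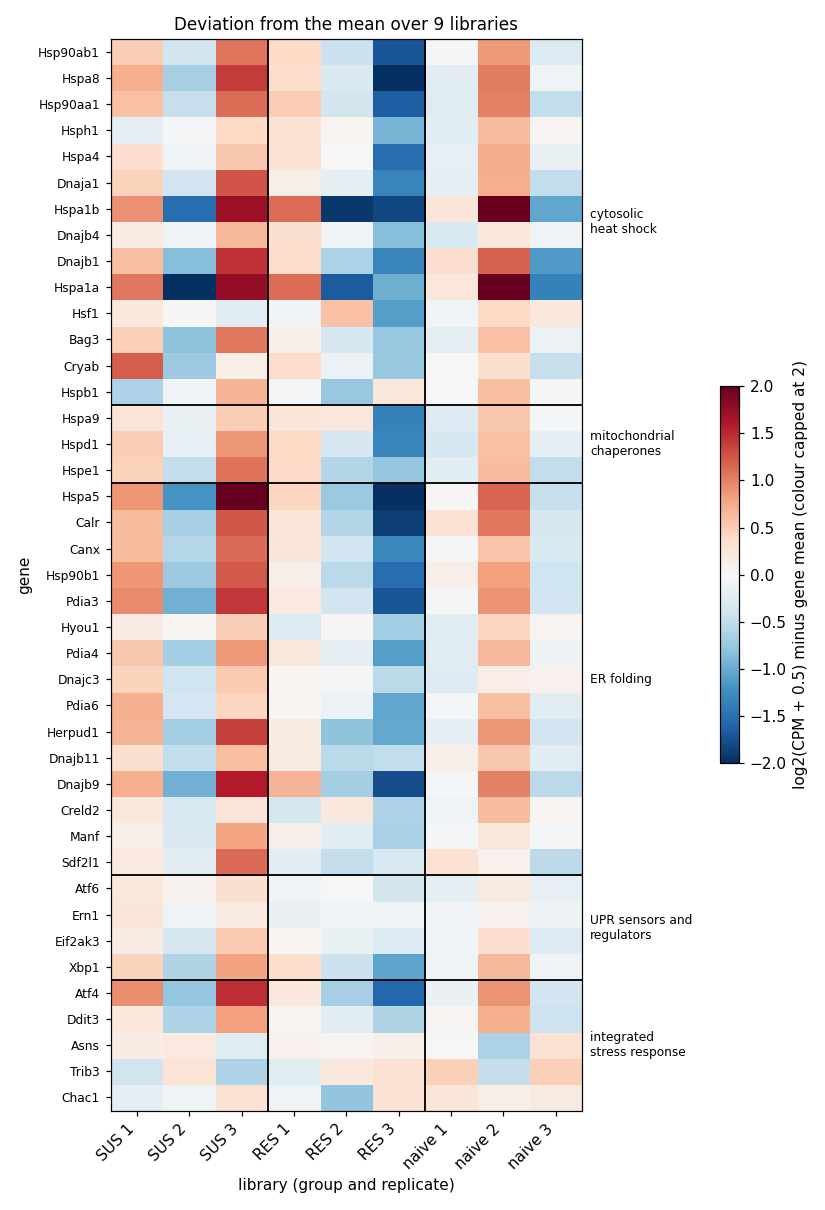
Deviation of log2(CPM + 0.5) from each gene's mean over the 9 libraries (colour, limited to 2 in either direction), with genes in rows by class and libraries in columns by group. SUS replicates 1 and 3 and naive replicate 2 are high and RES replicate 3 low for most genes of the cytosolic, mitochondrial and ER folding classes, and Asns does not follow.

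Marker genes of some other cells moved with these libraries, and those of others did not. The 18 microglial genes summed to 5155, 363 and 7080 CPM in SUS replicates 1 to 3, to 2280, 193 and 275 CPM in RES and to 2262, 4153 and 418 CPM in naive, and none of them was at 0 in all libraries. The 5 libraries with the highest microglial sums were also the 5 in which the 41 genes stood highest. The same 5 had the highest sums of 11 oligodendrocyte genes, 871 to 2524 CPM, against 279.5 to 572 CPM in the others. They were also highest for 7 oligodendrocyte precursor genes, 177 to 328 CPM, against 129 to 167 CPM in the others. The 13 immediate early genes, which neurons and glia switch on within minutes of stimulation, summed to 1803, 326 and 3481 CPM in SUS, to 1084, 271 and 188 CPM in RES and to 983, 1967 and 433 CPM in naive. RES replicate 3, lowest for these genes, also had the lowest sum of 10 astrocyte genes, 840 CPM, which ran from 1316 to 4133 CPM in the others. The astrocyte sum was highest in RES replicate 2 (4133 CPM) and naive replicate 3 (3852 CPM), where the 41 genes were low. The 12 medium spiny neuron genes were highest in RES replicate 2 (2038 CPM) and SUS replicate 2 (1998 CPM). Their sum was lowest in SUS replicate 3 (514 CPM) and RES replicate 3 (569 CPM). The mitochondrial share of counts was also highest in the 5 libraries with the highest microglial sums, at 17.7% to 28.7%. It was 9.09% to 17.1% in the others, lowest in RES replicate 3. The part of these markers, of the mitochondrial share, of background counts and of single libraries in the results on the 41 genes was not tested. In these bulk libraries a smaller share of a cell type and less RNA of a gene per cell cannot be told apart.

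**Figure D3:**
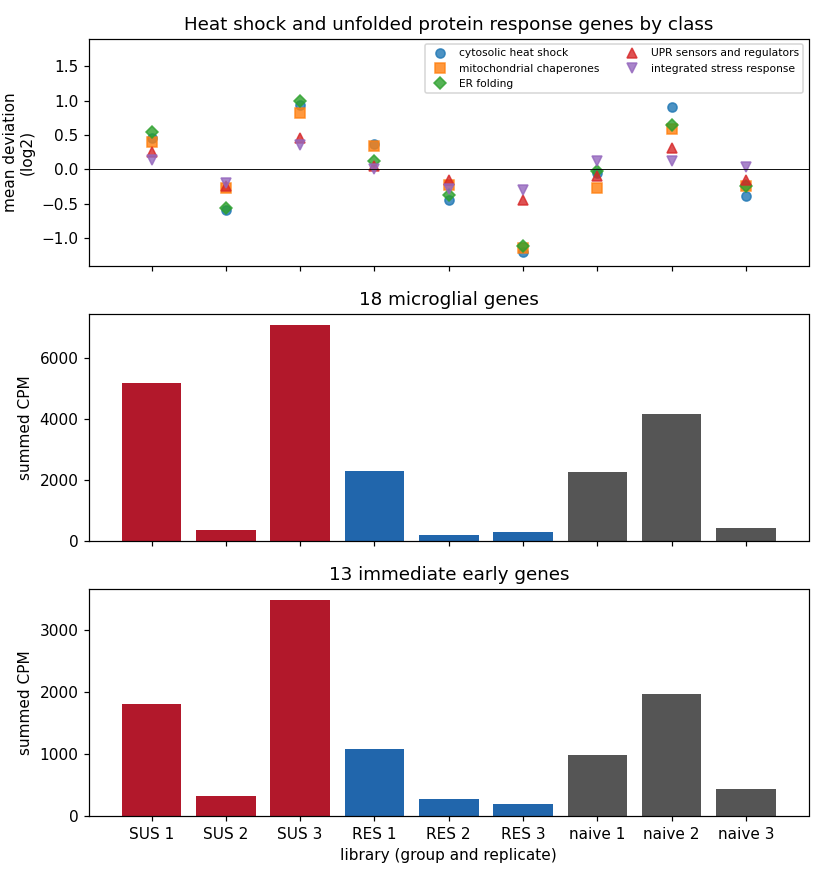
Mean deviation of each class per library (top, log2 scale, 5 classes as symbols) above the summed CPM of 18 microglial genes (middle) and 13 immediate early genes (bottom), with 3 libraries per group. SUS replicates 1 and 3 and naive replicate 2 have the highest sums and the highest cytosolic, mitochondrial and ER folding values, and SUS replicate 2, RES replicates 2 and 3 and naive replicate 3 have low sums and values below 0 for those classes.

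The spread was wider than that of genes of at least 10 CPM as a whole. The ratio of the highest to the lowest library had a median of 3.79 over the 41 genes, against 2.02 over the 14443 genes of at least 10 CPM. The 14443 genes were not matched to the 41 for level over background, and the part of level in this difference was not tested. It was 5.48 for the cytosolic class, 3.79 for the mitochondrial class, 3.92 for ER folding, 1.73 for the sensors and regulators and 2.33 for the integrated stress response. By gene it was 25.4 for Hspa1a, 20.1 for Hspa1b, 17.2 for Hspa5, 13 for Hspa8 and 11.01 for Dnajb9. At the other end it was 1.29 for Ern1, 1.62 for Atf6, 1.83 for Eif2ak3 and 1.95 for Asns. The 3 sensors of the unfolded protein response thus had small ratios over the libraries in which their ER targets differed most. They averaged 2.63 to 3.31 times background, against 22.6 for Hspa5, and the share of background in their counts was not separated.

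In the cytosolic class the inducible Hsp70 genes differed most. Hspa1b was at 69.9, 12.4 and 123 CPM in SUS replicates 1 to 3, at 80.1, 9.24 and 10.0 CPM in RES and at 43.6, 186 and 17.7 CPM in naive. Every group had a library at 17.7 CPM or below and a library at 80.1 CPM or above, so the groups overlapped. Hspa1a followed, at 35.0, 2.99 and 57.4 CPM in SUS, at 36.6, 4.94 and 8.19 CPM in RES and at 19.5, 75.9 and 6.20 CPM in naive. Of the 50-base words of their transcripts, 66.3% (Hspa1a) and 62.3% (Hspa1b) also occur in other genes, chiefly in each other, so the split between them depends on how the authors counted such reads and is uncertain.

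The constitutive chaperones had smaller ranges, with SUS replicate 3 and naive replicate 2 again on top. Hspa8 was at 438, 166.5 and 699.9 CPM in SUS, at 339, 216 and 53.8 CPM in RES and at 229, 546.5 and 248 CPM in naive. Relative to Hspa8, Hspa1b ran from 0.0427 in RES replicate 2 to 0.340 in naive replicate 2, so inducible and constitutive Hsp70 did not vary by the same factor. Hsp90ab1 (chromosome 17, 45567775 to 45573271) was at 456, 251 and 688 CPM in SUS, at 429, 242 and 98.8 CPM in RES and at 320.5, 585 and 271 CPM in naive. Hsp90aa1, its inducible partner, was at 266, 127 and 385 CPM in SUS, at 251, 137 and 56.05 CPM in RES and at 149, 354 and 125 CPM in naive. The ratio of Hsp90aa1 to Hsp90ab1 stayed between 0.462 and 0.604 in all 9 libraries. Hsp90aa1 and Hspa8 also share 47.5% and 39.4% of their words with other genes, mainly processed copies.

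The other cytosolic genes are partners and regulators of these machines. The J-domain co-chaperone Dnajb1, which loads clients onto Hsp70, was at 37.7, 13.4 and 68.0 CPM in SUS, at 32.1, 15.7 and 9.62 CPM in RES and at 31.3, 56.5 and 10.9 CPM in naive. Its highest values were again in SUS replicate 3 and naive replicate 2. Dnaja1, another J-domain partner of Hsp70, was at 78.6, 43.2 and 137 CPM in SUS, at 61.4, 50.0 and 22.4 CPM in RES and at 50.3, 94.3 and 40.3 CPM in naive, with the same extremes. The nucleotide exchange factors Hspa4 and Hsph1, which reset Hsp70 after each cycle, were highest in naive replicate 2, at 124 and 135 CPM, and lowest in RES replicate 3, at 25.6 and 46.0 CPM. Dnajb4 ran from 22.5 CPM in RES replicate 3 to 65.7 CPM in SUS replicate 3, at 2.40 times background on average. Bag3, which links Hsp70 to selective autophagy, ranged from 10.6 to 40.4 CPM over the libraries. Cryab, a small heat shock protein abundant in glia, was at 39.3, 9.98 and 18.5 CPM in SUS, at 21.7, 15.5 and 9.75 CPM in RES and at 16.9, 21.2 and 12.0 CPM in naive, with SUS replicate 1 alone at the top. The small heat shock protein Hspb1 was the scarcest of the class, at 1.93 to 6.04 CPM, and shares 50.1% of its words with pseudogene copies. Hsf1 was at 28.2, 24.8 and 20.8 CPM in SUS, at 23.5, 36.7 and 11.1 CPM in RES and at 23.5, 32.3 and 28.4 CPM in naive. At 1.81 times background on average, no order of libraries can be read from it, and Hsf1 is controlled mostly as a protein.

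The mitochondrial chaperones were intermediate. Hspd1 (Hsp60), the barrel of the mitochondrial folding chamber, averaged 36.8 ± 12.8 CPM in SUS, 22.1 ± 12.4 in RES and 27.97 ± 10.7 in naive (SD, n = 3 each). Per library it was at 37.6, 23.6 and 49.1 CPM in SUS, at 35.05, 20.8 and 10.4 CPM in RES and at 20.7, 40.2 and 23.0 CPM in naive. Its lid Hspe1 (Hsp10), transcribed from the shared promoter region in the opposite direction, averaged 20.0 ± 10.3 CPM in SUS, 12.0 ± 5.76 in RES and 14.5 ± 6.36 in naive (SD, n = 3 each). Hspe1 was at 19.6, 9.87 and 30.5 CPM in SUS, at 18.6, 9.24 and 8.06 CPM in RES and at 12.0, 21.8 and 9.81 CPM in naive. For both genes the ranges of the 3 groups overlapped. Hspa9, the mitochondrial Hsp70, was at 67.6, 51.55 and 80.0 CPM in SUS, at 67.3, 66.6 and 21.9 CPM in RES and at 47.5, 82.8 and 55.8 CPM in naive, with RES replicate 3 alone at the bottom.

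Among the ER folding genes Hspa5, the main Hsp70 of the ER and a usual readout of ER stress, had the widest range. Hspa5 (chromosome 2, 34771970 to 34777547) was at 262.5, 62.4 and 568 CPM in SUS, at 191, 84.4 and 33.0 CPM in RES and at 144, 317 and 103 CPM in naive. The lowest SUS library lay below all 3 naive libraries, and the highest lay above every other library. Canx, the membrane lectin chaperone, was at 204, 87.5 and 286 CPM in SUS, at 155.5, 100.1 and 53.2 CPM in RES and at 127, 195 and 106 CPM in naive. The ratio of Hspa5 to Canx ran from 0.621 in RES replicate 3 to 1.99 in SUS replicate 3, so the soluble Hsp70 varied more than the lectin chaperone. Calr was at 227, 92.5 and 349 CPM in SUS, at 174, 97.3 and 39.7 CPM in RES and at 180.4, 308 and 117 CPM in naive. Hsp90b1 (GRP94), the ER Hsp90, was at 224, 73.5 and 288 CPM in SUS, at 133, 84.2 and 42.0 CPM in RES and at 135, 216 and 92.4 CPM in naive. Both had the same 3 libraries on top.

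Pdia3 and Herpud1, genes of disulfide formation and of degradation, had the same 3 libraries on top. Pdia3, which works with Calr and Canx on glycoproteins, was at 150.0, 39.9 and 208 CPM in SUS, at 89.4, 59.5 and 23.4 CPM in RES and at 76.2, 146 and 59.7 CPM in naive. Herpud1, a scaffold of ER-associated degradation, was at 40.8, 15.6 and 65.5 CPM in SUS, at 28.4, 14.2 and 12.1 CPM in RES and at 21.9, 47.1 and 19.1 CPM in naive. Sdf2l1, a component of the ER chaperone complex, was at 8.88, 6.54 and 17.4 CPM in SUS, at 6.49, 5.37 and 6.11 CPM in RES and at 9.60, 8.16 and 5.18 CPM in naive. Its SUS libraries all lay above its RES libraries, by a margin between SUS replicate 2 and RES replicate 1 that was small beside the SD of 5.72 in SUS. Dnajb9, a J protein that the Ern1 branch induces, ran from 5.98 CPM in RES replicate 3 to 65.9 CPM in SUS replicate 3, and Pdia4 from 22.5 CPM to 88.3 CPM between the same libraries. Pdia6 was highest in SUS replicate 1, at 66.5 CPM, and lowest in RES replicate 3, at 19.5 CPM. Creld2, an ER protein of disulfide chemistry, was at 18.2, 12.4 and 18.7 CPM in SUS, at 12.1, 18.04 and 10.0 CPM in RES and at 14.5, 24.2 and 16.2 CPM in naive, highest in naive replicate 2. Manf, a secreted ER stress protein with neurotrophic activity, was at 9.36 to 26.2 CPM, and 2.16 times background on average. The factors with the lowest spread in this class were Dnajc3, Dnajb11 and Hyou1, with ratios of the highest to the lowest library of 2.10, 2.23 and 2.31.

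**Figure D4:**
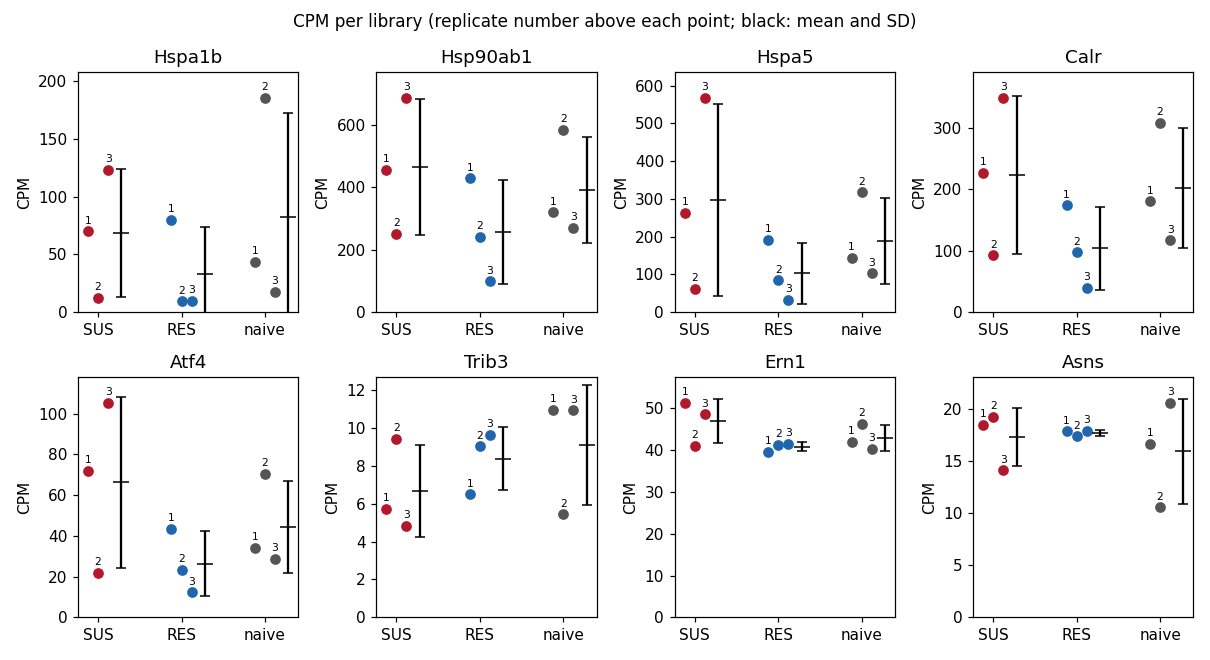
CPM of 8 genes in each library, with SUS, RES and naive from left to right, the replicate number above each point, and the mean and SD of each group (n = 3) in black, cut at 0. Hspa1b, Hsp90ab1, Hspa5, Calr and Atf4 have SUS replicate 3 and naive replicate 2 among their highest libraries, Ern1 and Asns differ little, and Trib3 is close to silent genes in level.

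The sensors were close to level. Ern1 was at 51.2, 40.9 and 48.5 CPM in SUS, at 39.6, 41.2 and 41.5 CPM in RES and at 41.9, 46.2 and 40.2 CPM in naive. Atf6 was at 71.0, 64.0 and 76.7 CPM in SUS, at 58.4, 61.2 and 47.2 CPM in RES and at 53.2, 68.9 and 54.5 CPM in naive, so that its SUS libraries lay above its RES libraries and overlapped with naive. These genes averaged 2.63 (Ern1), 3.02 (Eif2ak3) and 3.31 (Atf6) times background, and the share of background in their counts was not separated. Eif2ak3 was at 40.2, 28.6 and 52.35 CPM in SUS, at 37.3, 33.1 and 29.8 CPM in RES and at 34.9, 45.9 and 29.98 CPM in naive, so both its ends lay in 1 group. Xbp1, the factor downstream of Ern1, had a ratio of 3.76 between its highest and lowest libraries, from 11.2 CPM in RES replicate 3 to 42.1 CPM in SUS replicate 3. Gene counts do not separate spliced from unspliced Xbp1.

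In the integrated stress response Atf4 and Ddit3 varied with the chaperones, and Asns did not. Atf4 was at 71.8, 21.7 and 105 CPM in SUS, at 43.5, 23.4 and 12.2 CPM in RES and at 34.3, 70.4 and 28.7 CPM in naive. Asns, asparagine synthetase, was at 18.5, 19.3 and 14.15 CPM in SUS, at 17.9, 17.4 and 17.95 CPM in RES and at 16.7, 10.6 and 20.6 CPM in naive. It was lowest in naive replicate 2 and SUS replicate 3, which had 2 of the 3 highest Atf4 values. The ratio of Atf4 to Asns therefore ran from 0.681 in RES replicate 3 to 7.44 in SUS replicate 3. Asns averaged only 3.07 times background, had 35 counts in naive replicate 2, and the share of background in its counts was not separated. Trib3, a pseudokinase induced by Atf4 and Ddit3, was at 5.74, 9.42 and 4.84 CPM in SUS, at 6.49, 9.02 and 9.62 CPM in RES and at 10.9, 5.44 and 10.9 CPM in naive. At 1.87 times background on average it was close to silent genes, and no order of libraries can be read from it. Ddit3 (CHOP), a death-linked transcription factor, was at 25.4, 14.2 and 39.4 CPM in SUS, at 23.0, 18.9 and 14.3 CPM in RES and at 22.8, 36.3 and 16.4 CPM in naive, with SUS replicate 3, naive replicate 2 and SUS replicate 1 on top, as for Atf4. Chac1, which degrades glutathione, was at 4.76, 5.21 and 7.01 CPM in SUS, at 5.26, 3.01 and 6.89 CPM in RES and at 6.67, 6.04 and 6.38 CPM in naive, too near background for an order of libraries to be read.

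The comparison of SUS with RES gave the largest differences, and none passed the test. The edgeR quasi-likelihood test with Benjamini-Hochberg adjustment called 0 of the 41 genes, and 0% of the 39210 genes tested. Of the 41 genes 39 were higher in SUS, with a median log2 fold change of 0.63. The median was 0.01 over all genes tested, with 20062 of 39210 higher in SUS. It was 0.06 over those of at least 10 CPM, with 8471 of 14443 higher. The class medians were 0.77 for cytosolic genes, 0.74 for mitochondrial genes, 0.86 for ER folding, 0.31 for sensors and regulators and 0.13 for the integrated stress response. The 4 genes at an unadjusted p under 0.05 were Atf4, Sdf2l1, Herpud1 and Hsp90b1. Over all genes 2227 of 39210 had such a p. The count of 4 was 0 without SUS replicate 3 or without RES replicate 3, 21 without RES replicate 1 and 22 without SUS replicate 2. Over all genes such a p was found for 1171 of 40222, 1127 of 40449, 2649 of 41550 and 4712 of 40455 in that order. By DESeq2 the count was 8 of the 41 genes and 1885 of all 39210. Atf4 had a log2 fold change of 1.33 (SE 0.54, adjusted p = 0.870 by edgeR). Those of Sdf2l1, Herpud1 and Hsp90b1 were 0.86 (SE 0.35), 1.16 (SE 0.48) and 1.18 (SE 0.53), with the same adjusted p of 0.870 by edgeR, the smallest over the 41 genes. Without SUS replicate 3 the log2 fold changes were 0.83 for Atf4, 0.36 for Sdf2l1 and 0.63 for Herpud1. With RES replicate 3 also left out they were 0.49, 0.38 and 0.41. The largest estimate, 1.54 (SE 0.72), was that of Hspa5.

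Both extreme libraries weighed on that comparison. The median log2 fold change of the 41 genes was 0.31 without SUS replicate 3, 0.39 without RES replicate 3 and 0.10 with both left out, when 28 of 41 were still higher in SUS. It was 0.91 without SUS replicate 2 and 0.89 without RES replicate 1. Without SUS replicate 2 the smallest adjusted p by edgeR was 0.0952 over the 41 genes and 0.0611 over all genes tested. Groups without overlap were found for 3 genes, Sdf2l1, Atf6 and Hyou1, all higher in SUS, against 3.41% of all genes tested, and for 0 genes lower in SUS, against 4.22%. Hyou1, an ER chaperone of the Hsp110 type, was at 62.6, 58.0 and 79.2 CPM in SUS and 46.3, 56.7 and 34.2 CPM in RES, with a log2 fold change of 0.54 (SE 0.30). Trib3 and Asns were the 2 genes lower in SUS, with log2 fold changes of -0.33 (SE 0.32) and -0.03 (SE 0.25), and Asns turned to 0.09 without SUS replicate 3.

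**Figure D5:**
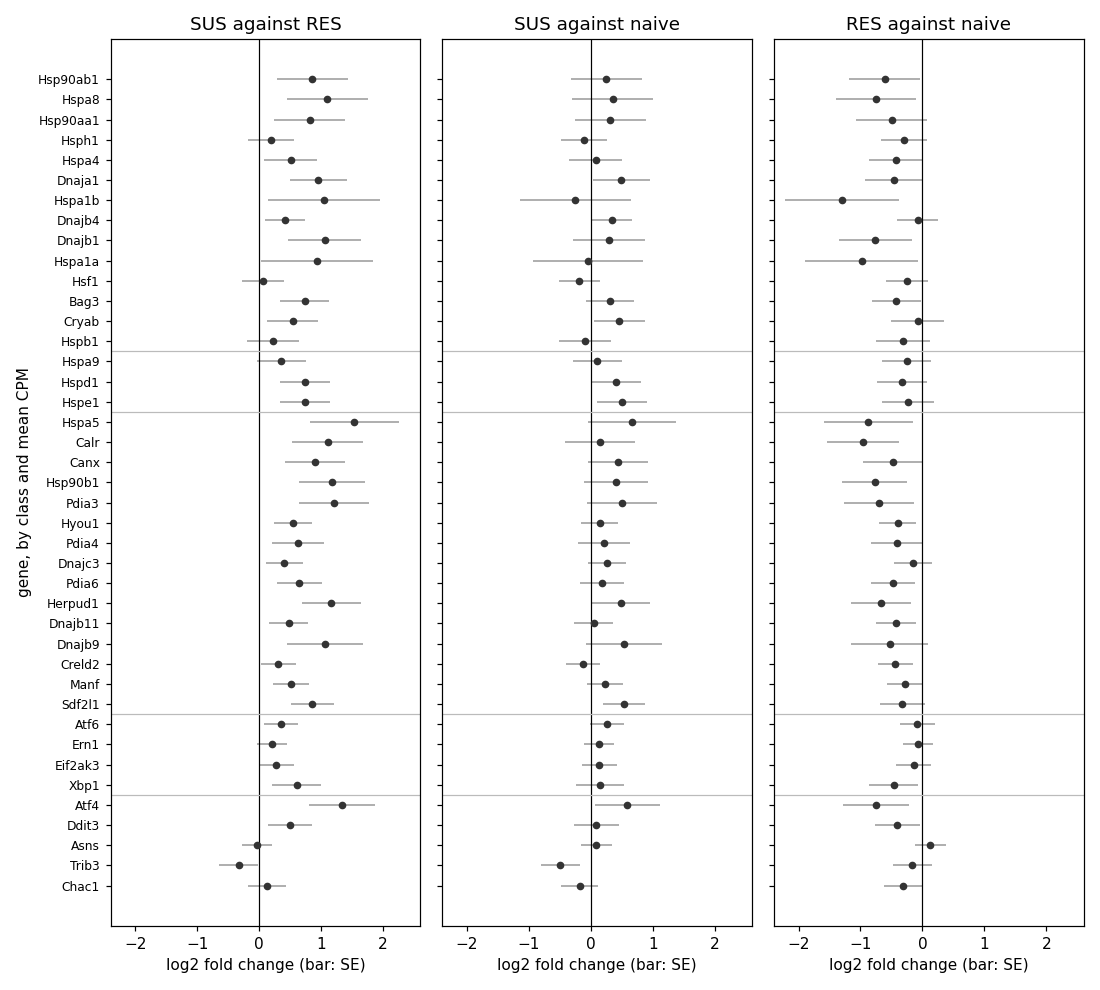
Log2 fold changes with SE of the 41 genes, by class, for SUS against RES, SUS against naive and RES against naive, from the edgeR fit of 9 libraries. The points lie mostly right of 0 for SUS against RES and left of 0 for RES against naive, with standard errors of 0.24 to 0.92, and none passed the test.

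SUS against naive gave smaller estimates. The edgeR test called 0 of the 41 genes, and 0% of all genes. Of the 41 genes 33 were higher in SUS, with a median log2 fold change of 0.23 (0.02 over all genes tested). Over all genes tested 20486 of 39210 were higher in SUS, and 8066 of the 14443 genes of at least 10 CPM. An unadjusted p under 0.05 was reached by 0 of the 41, and by 7 without SUS replicate 2, 1 without naive replicate 2 and 2 by limma-voom. Over all genes it was reached by 1225 of 39210, 3576 of 40455, 1056 of 41515 and 3225 of 39210 in that order. The highest estimates belonged to Hspa5, at 0.67 (SE 0.71), and Atf4, at 0.59 (SE 0.53, and 0.09 without SUS replicate 3), and the lowest to Trib3, at -0.49 (SE 0.31). Without SUS replicate 3 the median was -0.09 and 27 of the 41 genes were lower in SUS, so the direction rested on that library. Without naive replicate 2 it was 0.54, and without SUS replicate 2 it was 0.50. Without naive replicate 1 it was 0.12 and without naive replicate 3 it was 0.10. No gene of the 41 had groups without overlap, against 3.85% of all genes higher and 4.15% lower.

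RES against naive ran the other way. The edgeR test called 0 of the 41 genes, and 0% of all genes. An unadjusted p under 0.05 was reached by 0 of the 41, and by 8 without RES replicate 1 and 2 without RES replicate 2. Over all genes it was reached by 361 of 39210, 825 of 41550 and 455 of 41381 in that order. Of the 41 genes 40 were lower in RES, all but Asns (0.12, and -0.06 without naive replicate 2), with a median log2 fold change of -0.42, against -0.02 over all genes tested. Genes of at least 10 CPM were lower in RES in 63.6% of cases, with a median of -0.07. The lowest estimates were those of Hspa1b, at -1.30 (SE 0.91), Hspa1a, at -0.98 (SE 0.92), and Calr, at -0.96 (SE 0.57). That of Calr was -0.52 without naive replicate 2 and -1.55 without RES replicate 1. Without naive replicate 2 the median was -0.14, without RES replicate 3 it was -0.20, and without RES replicate 1 it was -0.68. With RES replicate 3 and SUS replicate 3 both left out it was -0.21. No gene of the 41 had groups without overlap, against 3.31% of all genes higher and 2.82% lower. SUS against naive and RES against naive share the naive libraries.

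Between all 6 cocaine libraries and naive the differences were small and of mixed sign. The edgeR test called 0 of the 41 genes, and 0% of all genes. Of the 41 genes 18 were higher and 23 lower in the cocaine libraries, with a median log2 fold change of -0.06, against 0.01 over all genes tested. Of the 14443 genes of at least 10 CPM 7021 were higher and 7422 lower. Calr had -0.30 (SE 0.53) and Hspa1b -0.68 (SE 0.79), and Cryab had 0.22 (SE 0.38), the highest of the 41 (-0.13 without SUS replicate 1). The median was 0.23 without naive replicate 2 and -0.30 without SUS replicate 3, so single libraries set its sign. It was 0.10 without RES replicate 3 and -0.20 without naive replicate 3. It was -0.16 without naive replicate 1 and -0.13 without SUS replicate 1. It was 0.05 without SUS replicate 2 and 0.04 without RES replicate 2. No gene of the 41 had groups without overlap, against 0.617% of all genes higher and 0.553% lower.

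Over all genes an unadjusted p under 0.05 by edgeR was found for 2227 in SUS against RES, 1225 in SUS against naive, 361 in RES against naive and 541 in cocaine against naive. DESeq2 gave 1885, 931, 264 and 484 in the same order, limma-voom with sample weights 3734, 3225, 1671 and 1697, and both called 0 genes. Of the 41 genes 13 share at least 5% of their 50-base words with other genes. The other 28 had medians of 0.53 for SUS against RES, 0.16 for SUS against naive, -0.42 for RES against naive and -0.08 for cocaine against naive. Exons of 12 of the 41 overlap a gene on the opposite strand, and the strand setting of the counting is not given in the sources used here.

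Related chaperone and stress genes outside the 41 had the same libraries at the top and bottom. The mean deviation over 116 such genes was 0.25, -0.11 and 0.28 in SUS replicates 1 to 3, 0.04, -0.02 and -0.58 in RES and -0.08, 0.25 and -0.02 in naive, a smaller range than that of the 41. In RES replicate 3 the median over all genes of at least 10 CPM was -0.30. Of these genes 115 were tested and the edgeR test called 0 in every comparison. For SUS against RES 99 were higher and 16 lower (median log2 fold change 0.28). Of the 115 genes 13 had an unadjusted p under 0.05 by edgeR, against 2227 of all 39210. Groups without overlap were found for 7, all higher in SUS, against 3.41% of all genes tested. All 8 subunits of the cytosolic chaperonin, the folding chamber for actin and tubulin, were higher in SUS (median 0.51), with Cct4 at 33.3, 24.9 and 30.2 CPM in SUS and 21.2, 16.5 and 14.7 CPM in RES, and these groups did not overlap. Of 32 other genes of ER folding and degradation 31 were higher in SUS (median 0.32), and of 10 other genes of mitochondrial protein quality 7 were (median 0.12). The ER mannosidase-like factor Edem1, which marks glycoproteins for degradation, had a log2 fold change of 1.33 (SE 0.47, adjusted p = 0.870 by edgeR). That of Selenok, a selenoprotein of the ER membrane, was 0.81 (SE 0.32) and that of Fkbp4, a co-chaperone of Hsp90, was 0.66 (SE 0.28). Of 19 other targets of Atf4 14 were higher in SUS (median 0.26), among them the amino acid transporter Slc7a5, at 0.88 (SE 0.30), and the transcription factor Cebpg, at 0.81 (SE 0.32).

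Ppp1r15a (GADD34), which lets translation resume after stress, was the most variable of the related genes named here. It was at 125.5, 30.4 and 290.5 CPM in SUS, at 84.5, 12.2 and 15.3 CPM in RES and at 70.5, 163 and 28.7 CPM in naive, a ratio of 23.7 between its highest and lowest libraries. Atf3, an immediate early factor that is also a target of Atf4, was at 110, 22.8 and 206 CPM in SUS, at 75.5, 13.3 and 18.9 CPM in RES and at 67.0, 163 and 34.0 CPM in naive. Both had their 3 highest values in SUS replicates 1 and 3 and naive replicate 2, as Hspa5 and Atf4 did. The serine synthesis enzyme Phgdh, a target of Atf4 as well, was at 59.9, 27.5 and 41.4 CPM in SUS, at 35.2, 57.1 and 27.2 CPM in RES and at 36.3, 45.3 and 41.2 CPM in naive. It did not follow that order. For RES against naive 98 of the 115 were lower in RES (median -0.17), for SUS against naive 82 were higher in SUS (median 0.09), and for cocaine against naive 54 were higher and 61 lower (median -0.02).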

How the data were processed

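RNA of 9 libraries of sorted nucleus accumbens cells was analysed from a table of raw counts per Ensembl gene that the authors deposited, with no scaling. Per the submitters' processing notes the tools were FastQC, STAR 2.5.2b, HTSeq, DESeq and DESeq2 with build GRCm38; their settings, the strand mode and the annotation release are not given in the sources used here. Of the 52636 IDs 52489 were in GENCODE mouse release M21, which gave positions and exonic lengths, and 52403 in a table of gene names. In R 4.3.3, filterByExpr of edgeR 4.0.16 kept 39210 genes and TMM gave the scaling. The quasi-likelihood F test was then run, p-values were adjusted by Benjamini-Hochberg over all these genes, and 0.05 was the threshold. All 9 libraries shared a model of 3 groups for the pairwise comparisons, and cocaine against naive had its own model of 2 groups. A standard error is the log2 fold change over the root of F. Alternatives were DESeq2 (1.42.0) and its size factors, no filter, limma-voom with sample weights (limma 3.58.1), removal of mitochondrial genes, a replicate block, each library left out, and, chosen after the data were seen, RES replicate 3 and SUS replicate 3 left out together.

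The members, the related genes and the marker lists were chosen with earlier results of these data known. By rule, values in every library were given for up to 3 members of highest mean CPM per class and the 3 of smallest p per direction and comparison; of the related genes up to 2 of smallest p per class were named. Other genes, among them Hspa1a, Hspa1b, Dnaja1, Dnajb1, Pdia3 and Phgdh, were described after their values were seen. Same-numbered RES and SUS libraries had correlations of 0.119 to 0.439 over 14443 genes, and those of naive with RES or SUS -0.488 to 0.073. Differently numbered RES and SUS libraries ran from -0.533 to 0.343, which overlaps with the same-numbered ones. Differently numbered pairs with naive reached 0.651 (naive 2 with RES 1) and 0.662 (naive 3 with SUS 2). The numbers may pair RES with SUS, but these correlations cannot show it. Depth limits low genes most: the lowest member count in a library was 9. Promoter sequences are RefSeq's.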

Additional observations from a re-analysis of the deposited data

Results flagged for a closer look

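In the 6 cocaine libraries Sdf2l1 was at 17.4 CPM in SUS replicate 3, against 5.37 to 8.88 CPM in the other 5, a gap of 0.708 of the whole range, above Dixon's 95% critical value for 6 libraries. In the same library Asns was at 14.15 CPM, below the 17.4 to 19.3 CPM of the other 5, with a gap of 0.632 of the range. Chance gives such a mark in about 1 of 20 sets of libraries, and 41 genes were examined.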

How the results depend on the processing

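No alternative called a member. The replicate block, fitted over all 3 groups, changed no call. For SUS against RES it left 4 members at an unadjusted p under 0.05 by edgeR, and 1995 of all 39210 genes. Its medians were 0.67 for SUS against RES, 0.22 for SUS against naive, -0.45 for RES against naive and -0.09 for cocaine against naive. Leaving out each library moved the median log2 fold change of the members between 0.31 and 0.91 for SUS against RES, -0.09 and 0.54 for SUS against naive, -0.68 and -0.14 for RES against naive, and -0.30 and 0.23 for cocaine against naive. With RES replicate 3 and SUS replicate 3 both left out the medians were 0.10, -0.08, -0.21 and -0.12 in that order, and by limma-voom 0.39, 0.22, -0.15 and -0.15. Many members turned sign with single libraries, as the counts by direction given above show. Of the members recomputed one by one, Asns turned for SUS against RES by limma-voom (0.026), with both libraries left out (0.107) and over single libraries (-0.12 to 0.091), for RES against naive over single libraries (-0.062 to 0.354) and for cocaine against naive (-0.087 to 0.338). Cryab for cocaine against naive ran from -0.133 to 0.41 over single libraries, and Sdf2l1 from -0.153 to 0.415, and -0.118 with both left out. The members above 3 times background numbered 34, 38 with the longest transcript as length and 19 with genes of other tissues as background. The causes were not tested. Depth limits the low genes Hspb1, Trib3, Chac1 and Sdf2l1, each under 10 CPM on average.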
